A study of Drosophila melanogaster with 16 samples.

Results

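The genes described here code for the proteins of the cytosolic ribosome, read in RNA from adult fly hearts. Members were every probeset (a set of short probes for one transcript) whose only gene symbol in the platform annotation starts with RpL, for the large subunit, or RpS, for the small subunit. The rule found 47 probesets of 41 genes, against 18769 probesets tested and 11982 genes with a symbol of their own. They are 27 probesets of 25 RpL genes and 20 probesets of 16 RpS genes. Mitochondrial ribosomal proteins carry other symbols and were not included. The gene table of the fly lists 92 RpL and RpS genes, and 51 of them, several main copies of duplicated genes included, had no probeset that met the rule and are not analysed here.

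A ribosome joins a large and a small subunit, each a scaffold of ribosomal RNA dressed with many small basic proteins. Most of these proteins are needed in equal numbers, and their mRNAs are among the most abundant of any cell. In flies, the loss of one copy of many of these genes gives the Minute phenotype, with slow development and thin bristles. Several of the genes also have a duplicate, and some duplicates are used mainly in the germ line.

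The study asked how the loss of different potassium channels of the repolarizing heart changes gene expression. Each array was hybridised with RNA of 30 pooled hearts from flies aged 3 weeks, and there were 16 arrays. The groups were sei mutants carrying seits1 (n = 5), set against the Canton-S control WtCS (n = 5), and KCNQ mutants (n = 3), set against the precise excision control WtPE (n = 3). The sei gene codes for the fly hERG channel, and seits1 is a point mutation from a chemical mutagenesis screen that puts a stop codon before the membrane-spanning part. The KCNQ mutants, labelled KCNQ37 in the sample records, came from the imprecise excision of a P element, and WtPE, named KCNQ97, is a precise excision of the same element. Both mutations are present in every cell of the fly, so the hearts are not the only tissue affected. Flies were separated by sex, but the labels do not say which sex was dissected.

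The deposited values are intensities made by RMA, and all values below are their log2, on which a difference of 1 is a 2-fold difference. Arrays within a group correlated at 0.938 or more. The sei probeset averaged 4.82 ± 0.55 in sei hearts and 5.77 ± 0.28 in WtCS hearts (SD, n = 5 each; limma log2 change -0.96, adjusted p = 0.0212). The array names in the study's own data tables fall into 3 naming series, called runs here. In run A were sei and WtCS replicates 4 and 5 with all KCNQ and WtPE arrays, in run B WtCS replicates 1 and 2, and in run C sei replicates 1 to 3 and WtCS replicate 3. Of 11 heart and muscle markers, 7 were measured. The cardiac factor Hand lay between 11.83 and 12.43 on every array, while the pericardial collagen-like gene prc was near the bottom of the range (1.40 to 2.48). The marker pnr was lower in sei than in WtCS hearts (limma log2 change -1.14, adjusted p = 0.00112), and the other 6 did not pass. In pooled hearts, fewer cells of a type and less RNA per cell cannot be told apart.

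The ribosomal protein probesets fell into a bright and a dim set. Of the 47, 33 probesets of 32 genes had a mean log2 intensity over 10 (10.98 for RpL7-like to 13.32 for RpL41), and 14 lay at 8.19 or below. The median probeset of the whole array lay at 3.42, and 5.08% of all probesets were at or over 10. The boundary was drawn after the values were seen. Intensities of different probesets do not measure relative amounts of mRNA, and no calls of presence were used, so a dim probeset may or may not report a transcript.

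Among the bright members, the 5 highest means belonged to RpL41, which codes for the smallest protein of the ribosome, RpLP2 of the stalk, RpS21, RpS18 and RpL15. RpL41 read 13.00, 12.90, 12.81, 13.55 and 13.57 in sei hearts, against 13.47, 13.42, 13.03, 13.57 and 13.56 in WtCS hearts. It read 13.34, 13.36 and 13.42 in KCNQ hearts, against 13.47, 13.36 and 13.34 in WtPE hearts. The 4 lowest of its values were those of run C. Bright members varied little between the replicates of KCNQ and WtPE hearts, with a median SD of 0.036 in KCNQ hearts and 0.026 in WtPE hearts. The corresponding medians were 0.202 in sei hearts and 0.157 in WtCS hearts, whose arrays come from more than 1 run.

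Between sei and WtCS hearts, 3 ribosomal protein probesets passed the test. With 47 members, that count cannot be set apart from the share of all probesets. RpL10Aa and RpL22-like, both in the dim set, rose in sei hearts, and RpL27, a bright member, fell. These are 3 of 47 probesets called by limma at a Benjamini-Hochberg adjusted p under 0.05, or 6.38%, against 11.1% of all probesets. By direction, 2 of 47 rose (4.26%, against 6.47% of all probesets) and 1 fell (2.13%, against 4.66%). The groups did not overlap for 1 member above (3.75% of all probesets) and for 2 below (3.42%). The median member changed by -0.10 and the median probeset of the array by -0.02. Of the members 28 of 47 were below 0, and of all probesets 9812 of 18769. At an unadjusted p under 0.05 there were 7 members, 3 above 0 and 4 below (14.9%, against 24.3% of all probesets).

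**Figure D1:**
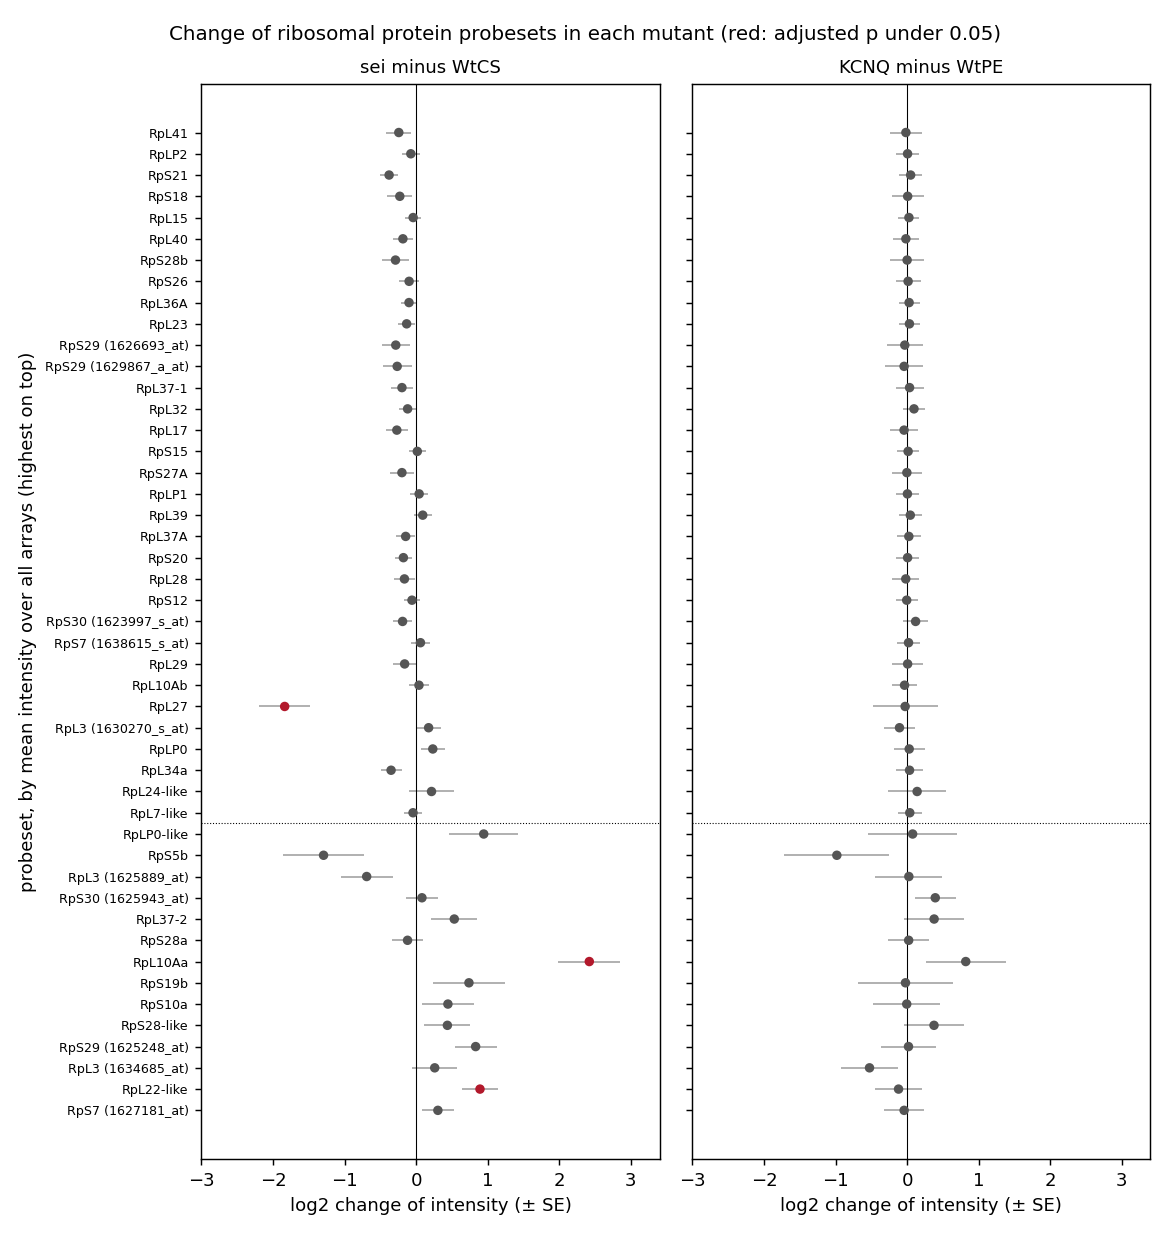
Log2 change of each ribosomal protein probeset (points, ± SE from limma) in sei minus WtCS hearts (left) and KCNQ minus WtPE hearts (right), ordered by mean intensity, with the dotted line between the 33 bright and 14 dim probesets. The 3 red points are RpL27 at -1.84, RpL10Aa at 2.42 and RpL22-like at 0.89 in sei hearts, and no point in KCNQ hearts is red.

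RpL27, a protein of the large subunit, had the largest fall of the 47. It read 9.99, 9.83, 9.94, 11.73 and 11.89 in sei hearts, against 12.60, 12.65, 12.25, 12.53 and 12.53 in WtCS hearts. Every sei value lay below every WtCS value, and the sei values formed 2 sets, with the arrays of run C well below those of run A. The limma change was -1.84 ± 0.35 (SE, adjusted p = 0.00346). Within run A it was -0.73 (adjusted p = 0.0426), within run C -2.32 (adjusted p = 1.25e-05), and with array run as a covariate -1.41 (adjusted p = 0.0028). Without the arrays of run C, an alternative added after the data were seen, it was -0.77 (adjusted p = 0.0126). In run C the only control array is WtCS replicate 3, which was assumed to vary like the others, here and for every value within run C below. Sample codes shared by sei replicates 2 and 5, and by 3 and 4, span runs A and C, so the runs may not be separate RNA samples. RpL27 read 12.63, 12.70 and 12.62 in KCNQ hearts, against 12.70, 12.70 and 12.64 in WtPE hearts, where it changed by -0.03 ± 0.45.

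RpL10Aa had the largest rise of the 47. Together with RpL10Ab it codes for closely related forms of a protein of the L1 stalk, which guides tRNA out of the ribosome. RpL10Aa read 6.78, 5.99, 4.71, 5.26 and 4.04 in sei hearts, against 3.68, 2.91, 3.02, 2.87 and 2.20 in WtCS hearts. The groups did not overlap, and sei replicate 1 was highest. The change was 2.42 ± 0.43 (adjusted p = 0.00214). It was 2.12 within run A (adjusted p = 0.056), 2.80 within run C (adjusted p = 0.0503) and 1.74 without run C (adjusted p = 0.0534), none of which passed. With array run as a covariate it was 2.41 and passed (adjusted p = 0.00644). RpL10Ab, the bright copy, read 12.25, 12.30, 12.24, 11.87 and 11.93 in sei hearts, against 12.11, 12.20, 12.20, 11.92 and 11.96 in WtCS hearts, a change of 0.04 ± 0.14 with overlapping values.

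RpL22-like is the duplicate of RpL22 known from the germ line of the testis. It read 3.45, 3.93, 2.86, 2.77 and 3.41 in sei hearts, against 2.09, 2.88, 2.04, 1.95 and 3.01 in WtCS hearts. The highest WtCS arrays reached the lower sei values, so the groups overlapped. The change was 0.89 ± 0.25 (adjusted p = 0.033), on a probeset whose mean of 2.59 lay below that of the median probeset. With array run as a covariate the change was 0.94 and no longer passed (adjusted p = 0.0761), and it also failed the test within each run and without any 1 of 5 arrays (sei replicates 1 and 2, WtCS replicates 1, 3 and 4), with adjusted p between 0.0586 and 0.092. Without run C it was 0.61 (adjusted p = 0.29).

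Markers of testis and of ovary germ cells moved between these groups too. Over all probesets, 6.47% rose and 4.66% fell in sei hearts. Of 10 testis markers, 4 rose (Mst84Da, Mst87F, Mst98Ca and sa) and 0 were called lower. The 10 markers had a median change of 0.96, with 9 above 0 and twe below it (limma -1.07, adjusted p = 0.0683). Their summed intensity ran from 324 to 1664 in sei hearts, against 96.7 to 545 in WtCS hearts, while aly and comr, which are needed in the male germ line, stayed between 1.28 and 2.59 on the log2 scale in all groups. The highest testis sum, 1664, was that of sei replicate 1, which also had the highest RpL10Aa. Other arrays did not follow this order: sei replicate 5 had a sum of 324, below the 545 and 411 of WtCS replicates 1 and 2, and yet a higher RpL10Aa (4.04) than every WtCS array. Of 12 ovary germ cell markers, 6 fell (BicC, orb, bam, ovo, tos and grk) and 0 rose, with sums of 491 to 1252 in sei hearts against 1394 to 4289 in WtCS hearts. The defining germ cell gene vas was between 1.33 and 2.45 on every array. Of the other lists, hemocytes had 1 of 7 markers higher and 4 lower, neurons 1 of 5 lower, heart and muscle 1 of 7 lower, and fat body and trachea 0 called. The part of germ cell RNA in the values of RpL10Aa and RpL22-like was not tested.

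RpS5b, a duplicate known from the female germ line, had the second largest fall, which did not pass the test (-1.29 ± 0.57, adjusted p = 0.171). It read 6.13, 7.40, 7.56, 8.55 and 7.96 in sei hearts, against 8.25, 7.28, 10.50, 8.21 and 9.83 in WtCS hearts. The 2 highest values, in WtCS replicates 3 and 5, belong to the arrays with the highest ovary sums, 4289 and 3867. The lowest, in sei replicate 1, belongs to the array with the lowest sum, 491. Other arrays did not follow this order: WtCS replicate 2, with a sum of 1761, read 7.28, and sei replicate 4, with 1146, read 8.55. In KCNQ hearts it read 8.04, 6.35 and 7.36, against 8.79, 8.24 and 7.66 in WtPE hearts (-0.98 ± 0.73). Between sei and WtCS hearts the change was -0.76 within run A (adjusted p = 0.561) and -0.14 without run C (adjusted p = 0.933). With array run as a covariate it was -1.92 (adjusted p = 0.067). Within run C it was -3.47, set against WtCS replicate 3 alone, the array with the highest RpS5b. RpS19b, another duplicate of the germ line, read 5.56, 5.71, 4.47, 2.99 and 3.16 in sei hearts, against 3.81, 3.31, 4.82, 3.63 and 2.64 in WtCS hearts (0.74 ± 0.51, adjusted p = 0.429), with its higher values on the arrays of run C.

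**Figure D2:**
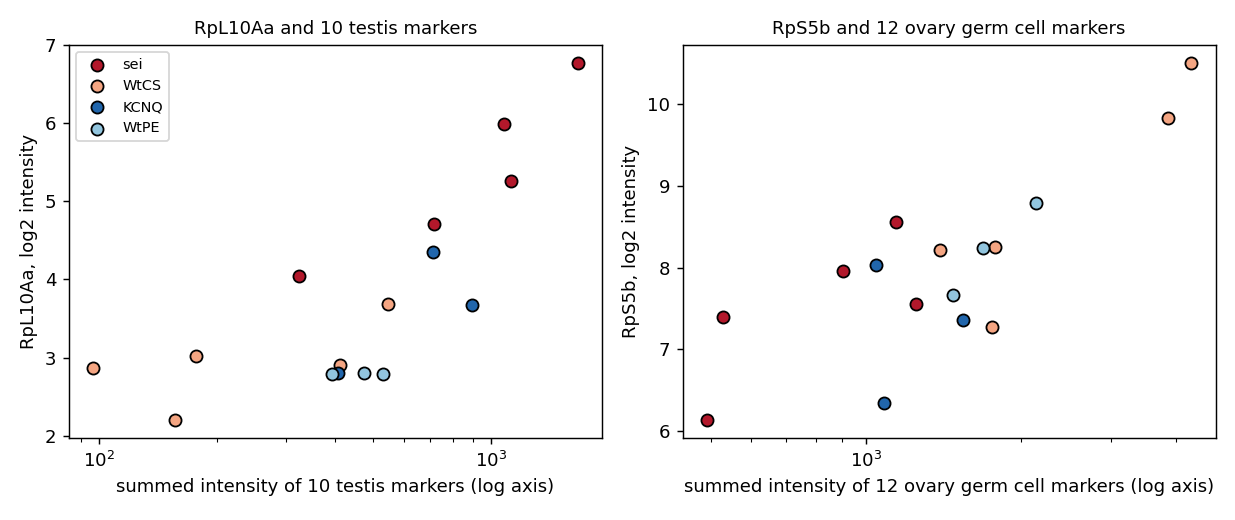
Log2 intensity of RpL10Aa against the summed intensity of 10 testis markers (left) and of RpS5b against that of 12 ovary germ cell markers (right), 1 point per array, sums on a log axis. The sei array with the highest testis sum, 1664, has the highest RpL10Aa at 6.78, while a sei array with a sum of 324 reads 4.04. A KCNQ array with a testis sum of 894 reads 3.67. The WtCS array with the highest ovary sum, 4289, has the highest RpS5b at 10.50. A WtCS array with an ovary sum of 1761 reads 7.28, below a sei array with a sum of 1146 at 8.55.

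RpS21, a small subunit protein whose loss causes overgrowth of the blood-forming organs of the larva, was the other member whose sei values all lay below those of WtCS. It read 12.81, 12.85, 12.79, 13.09 and 13.10 in sei hearts, against 13.41, 13.38, 13.12, 13.30 and 13.32 in WtCS hearts. WtCS replicate 3, from run C, was the control closest to the sei arrays. The change of -0.38 ± 0.13 missed the threshold (adjusted p = 0.0687). In run A alone it was -0.21 and in run C alone -0.30. It passed with an intensity trend and robust prior (adjusted p = 0.00817) and when dim probesets, of a mean under 5, were left out (adjusted p = 0.039). It also passed with sample codes averaged (adjusted p = 0.0485), without WtCS replicate 3 (0.0429) and without sei replicate 5 (0.0391), and not under the other alternatives.

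**Figure D3:**
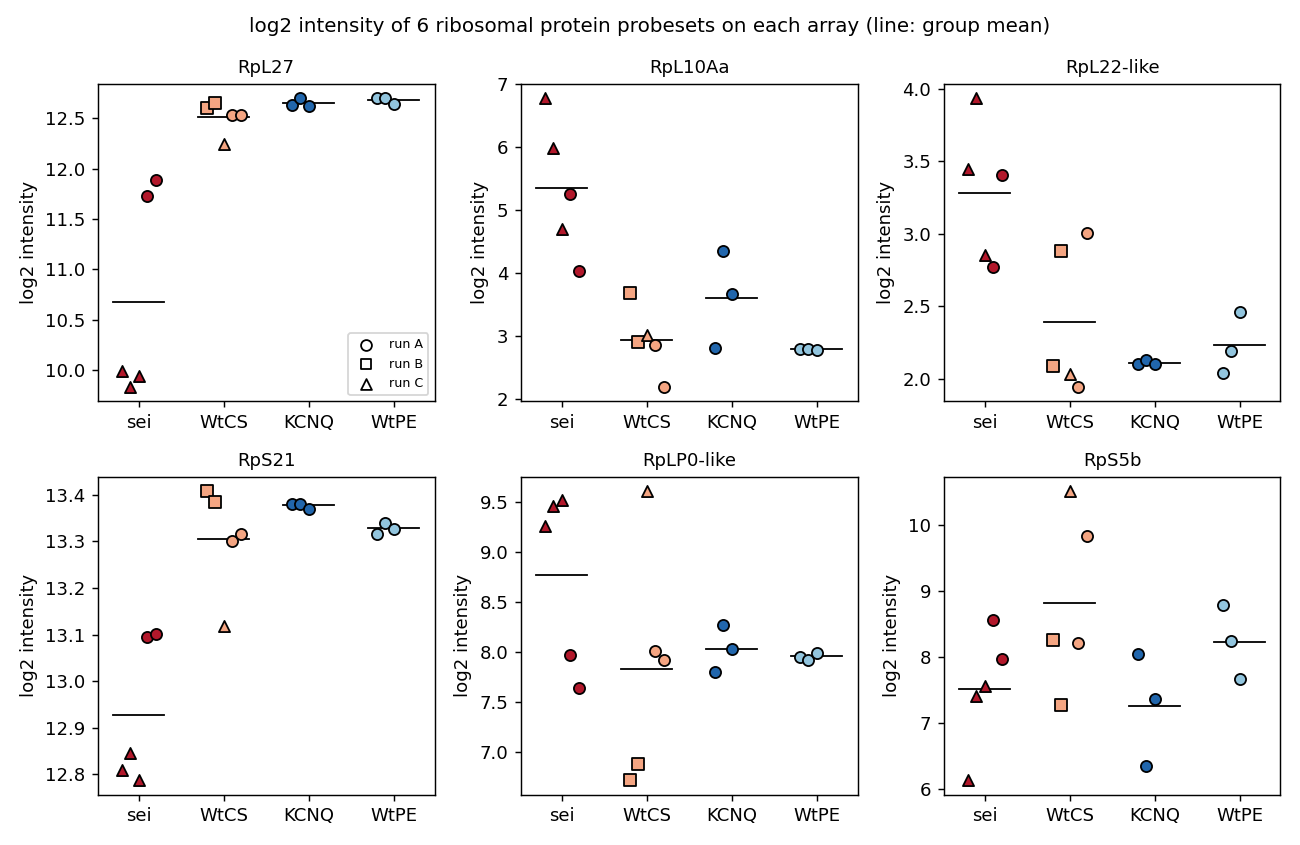
Log2 intensity of RpL27, RpL10Aa, RpL22-like, RpS21, RpLP0-like and RpS5b on each of the 16 arrays, with the group means as lines and the array run as the symbol (circles run A, squares run B, triangles run C). RpL27 and RpS21 of sei hearts lie below all WtCS arrays, whereas RpLP0-like is high on all 4 arrays of run C, 9.27 to 9.61, in both genotypes.

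The bright set as a whole was slightly lower in sei hearts, and its values also differed between the array runs, which hold the genotypes in unequal numbers. Its median change was -0.15, with 25 of 33 probesets below 0, and it was -0.19 for the 12 of the small subunit and -0.12 for the 21 of the large subunit. All probesets of the same intensity had a median change of 0.01, with 473 of 953 below 0. For each array, the deviation of the 33 probesets from their own means over 16 arrays gave medians of -0.25, -0.20, -0.23, -0.04 and -0.05 in sei hearts, against 0.09, 0.09, -0.16, -0.03 and 0.00 in WtCS hearts. The 4 arrays of run C were the 4 lowest, WtCS replicate 3 among them. Within run A the median difference between sei and WtCS hearts was -0.02, and apart from RpL27 the differences ran from -0.21 for RpS21 to 0.10. Within run C the median was -0.05, and apart from RpL27 the range was -0.30 for RpS21 to 0.14.

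**Figure D4:**
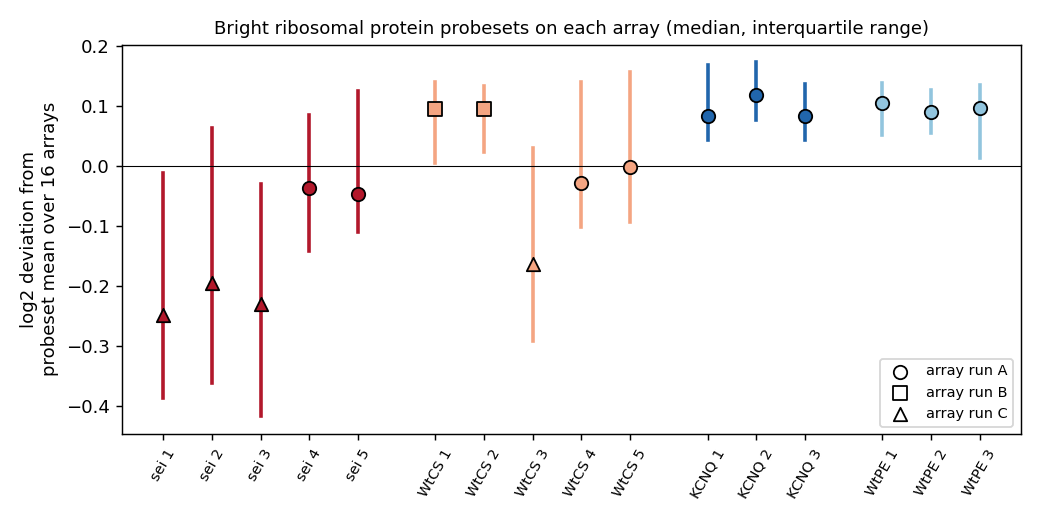
Median log2 deviation of the 33 bright ribosomal protein probesets from their own means over 16 arrays (points, with bars for the interquartile range over the probesets), by array, with the run as the symbol. The 4 arrays of run C have the 4 lowest medians, -0.25 to -0.16, and the KCNQ and WtPE arrays lie together between 0.08 and 0.12.

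Members did not share 1 direction between the runs. Among the sei and WtCS arrays, all 4 of run C lay below all 4 of run A for 17 of 33 bright probesets, above them for 8, and overlapped for 8. Of all probesets at the same intensity, 20.9% lay below in this way and 31.8% above, and of all probesets of the array 18.2% and 13.7%. RpS28b, of the small subunit, was in the lower set, with 12.52, 12.58, 12.53, 13.26 and 13.25 in sei hearts, against 13.16, 13.14, 12.69, 13.32 and 13.27 in WtCS hearts. Both bright probesets of RpS29, RpS18, RpL41, RpL29 and RpS27A were in that set as well. RpLP0, the base of the stalk, was in the upper set, with 12.08, 12.11, 12.06, 11.48 and 11.61 in sei hearts, against 11.46, 11.57, 11.97, 11.62 and 11.55 in WtCS hearts. RpL3, RpL39, RpL10Ab, RpLP1, RpS7, RpL15 and RpL24-like went the same way. Which property of the arrays or hearts sets these runs apart was not tested.

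**Figure D5:**
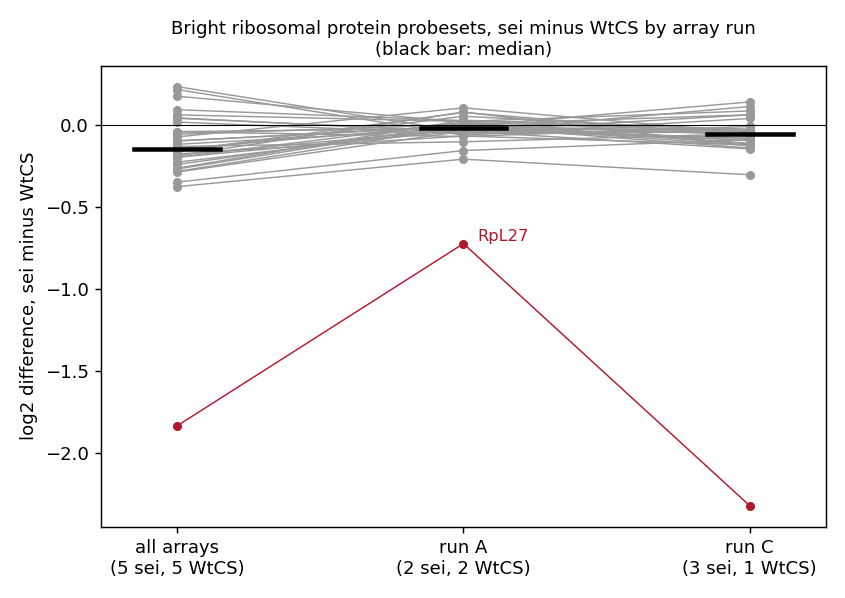
Log2 difference between sei and WtCS hearts for the 33 bright ribosomal protein probesets over all arrays, in run A and in run C, each line 1 probeset and each black bar the median. The medians are -0.15, -0.02 and -0.05, and RpL27 (red) is the lowest point in all 3 columns.

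Among relatives of ribosomal proteins that act in assembly of the subunits, RpLP0-like and RpL24-like were higher on all 4 sei and WtCS arrays of run C than on those of run A, and RpL7-like was not. RpLP0-like, the fly form of the yeast assembly factor Mrt4, holds a place on the young large subunit that RpLP0 takes later. It read 9.27, 9.46, 9.52, 7.97 and 7.65 in sei hearts, against 6.72, 6.88, 9.61, 8.01 and 7.92 in WtCS hearts. The groups overlapped, WtCS replicate 3 was the highest array of all, and the 2 arrays of run B were lowest. Its change of 0.94 ± 0.48 did not pass (adjusted p = 0.253) and turned to -0.17 with array run as a covariate. It passed with sample codes averaged (1.13, adjusted p = 0.0303) and without WtCS replicate 3 (1.39, adjusted p = 0.0307), and not under the other alternatives. RpL24-like, related to yeast Rlp24, read 11.61, 11.83, 11.90, 10.37 and 10.49 in sei hearts, against 11.23, 11.16, 11.74, 10.45 and 10.55 in WtCS hearts (0.21 ± 0.32). RpL7-like, related to yeast Rlp7, changed by -0.04 ± 0.13.

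The stalk, which recruits the translation factors that use GTP, was measured in full. RpLP0 changed by 0.23 ± 0.17, RpLP1 by 0.04 ± 0.13 and RpLP2 by -0.07 ± 0.13 in sei hearts, and none of the 3 passed. RpL40 and RpS27A, which are made as fusions with ubiquitin and so also supply ubiquitin, changed by -0.18 ± 0.14 and -0.20 ± 0.16. RpL32, long used as a reference gene for qPCR in flies under the name rp49, read 12.68, 12.69, 12.65, 12.84 and 12.83 in sei hearts, against 12.88, 12.92, 12.77, 12.87 and 12.85 in WtCS hearts. Its change of -0.12 ± 0.12 did not pass (adjusted p = 0.61), and the 95% interval ran from -0.37 to 0.13.

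The list of duplicated genes had 15 of its 26 members measured, of which RpL10Aa and RpL22-like rose, 0 fell and 13 did not pass in sei hearts, with a median change of 0.21, where 6.47% of all probesets rose and 4.66% fell. For 4 pairs both copies were measured. RpL37-1 read 12.59, 12.69, 12.38, 13.00 and 13.01 in sei hearts, against 12.96, 12.98, 12.63, 13.05 and 13.04 in WtCS hearts (-0.20 ± 0.15), whereas its dim partner RpL37-2 read 5.36, 5.48, 3.69, 4.23 and 3.96, against 4.20, 3.92, 3.49, 4.34 and 4.11 (0.53 ± 0.32). RpS28b changed by -0.29 ± 0.19 and its dim partner RpS28a by -0.12 ± 0.22. Of the single measured copies, RpL34a, of the large subunit, read 10.91, 10.93, 10.92, 10.90 and 11.12 in sei hearts, against 11.66, 11.53, 11.01, 11.18 and 11.16 in WtCS hearts. The groups overlapped only through WtCS replicate 3 and sei replicate 5, and the change of -0.35 ± 0.15 did not pass (adjusted p = 0.151). RpS10a and RpS28-like, both dim, changed by 0.44 ± 0.36 and 0.44 ± 0.32. Of the 14 dim members 11 were above 0, with a median of 0.44, and of all probesets 8957 of 18769, with a median of -0.02. Probesets of the same low intensity were not set beside them.

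For 4 genes several probesets met the rule, and they did not always move together. The bright probesets of RpS29 changed by -0.28 ± 0.19 and -0.26 ± 0.20, while its dim probeset read 2.61, 3.13, 3.12, 3.63 and 3.08 in sei hearts, against 2.66, 1.34, 2.79, 1.78 and 2.84 in WtCS hearts (0.83 ± 0.29, adjusted p = 0.0811). RpL3, which lies next to the catalytic center of the large subunit, changed by 0.17 ± 0.17 on its bright probeset and by -0.69 ± 0.36 on the brighter of its dim ones and 0.26 ± 0.31 on the other. The brighter dim probeset of RpL3 read 4.18 in sei replicate 5 and 6.35 to 6.57 in the other sei arrays, against 6.30 to 6.90 in WtCS hearts. The bright and the dim probeset changed by 0.06 ± 0.13 and 0.30 ± 0.22 for RpS7, and by -0.19 ± 0.14 and 0.08 ± 0.22 for RpS30.

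In KCNQ hearts the bright ribosomal protein probesets lay close to their control, while the dim ones ranged more widely. None of the 47 probesets passed limma, against 0.17% of all probesets, and 0 had an unadjusted p under 0.05 (2.81% of all probesets). A limma fit of these groups alone also called 0. The bright set had a median change of 0.01 and a range of -0.11 for RpL3 to 0.14 for RpL24-like. The 95% intervals of its changes lay between -0.99 and 1.00. The 14 dim members ran from -0.98 for RpS5b to 0.82 for RpL10Aa, with 95% intervals between -2.54 and 2.01. The interval of RpL27 itself, -0.99 to 0.94, holds the change of -0.73 that it had in sei hearts within run A, the run of all KCNQ and WtPE arrays.

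The groups did not overlap for 5 members above (5.81% of all probesets) and 2 below (5.01%). RpS30, whose protein is made as a fusion with a ubiquitin-like peptide, read 12.78, 12.79 and 12.78 in KCNQ hearts, against 12.65, 12.66 and 12.68 in WtPE hearts (0.12 ± 0.18). RpL32 read 13.06, 13.07 and 13.04 in KCNQ hearts, against 12.97, 12.94 and 12.97 in WtPE hearts (0.10 ± 0.15). The spread used by the test is shared by all 4 groups, and for these genes it was larger than the gap between the arrays. RpL10Aa read 2.81, 4.35 and 3.67 in KCNQ hearts, against 2.80, 2.79 and 2.79 in WtPE hearts (0.82 ± 0.56, 95% interval -0.37 to 2.01). The testis sums ran from 408 to 894 in KCNQ hearts and from 392 to 531 in WtPE hearts, with 0 of 10 testis markers called. RpS21 and RpL15 were the other members above, and both bright RpS29 probesets were below by 0.03 and 0.04.

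The change in sei hearts less that in KCNQ hearts was tested as a contrast of its own, and 0 of 47 members passed, against 1.39% of all probesets. With no adjustment 3 members had a p under 0.05, or 6.38%, against 10.7% of all probesets. They were RpL10Aa (1.6, adjusted p = 0.425), RpL22-like (1.01, adjusted p = 0.367) and RpL27 (-1.81, adjusted p = 0.195). RpL27 passed when arrays of the same sample code were averaged (-1.94, adjusted p = 0.0028) and without sei replicate 5 (-2.11, adjusted p = 0.0316). The calls in sei hearts were therefore not shown to differ from the KCNQ changes in the fit of all 16 arrays.

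Between the control strains, 0 of 47 members passed for WtPE against WtCS hearts, against 3.67% of all probesets, and 2 had an unadjusted p under 0.05 (14.9% of all probesets). A limma fit of these groups alone called 0 as well. Of the bright members 26 of 33 were above 0, with a median of 0.06, and of all probesets at the same intensity 590 of 953, with a median of 0.09. The groups did not overlap for 7 members above (5.39% of all probesets), namely RpL7-like, RpL34a, RpL10Ab, RpS12, RpL37A, RpL32 and RpL36A, and for 1 below (5.18%). RpL34a read 11.71, 11.67 and 11.71 in WtPE hearts, against 11.66, 11.53, 11.01, 11.18 and 11.16 in WtCS hearts (0.39 ± 0.17, adjusted p = 0.281). RpL24-like read 11.44, 11.41 and 11.58 in WtPE hearts, against 10.45 and 10.55 in the WtCS arrays of the same run. Within run A its difference was 0.98 (adjusted p = 0.00572), against 0.45 over all arrays (adjusted p = 0.693). With array run as a covariate RpL24-like (1.00), RpL34a (0.54) and RpL10Ab (0.40) passed, against 19.2% of all probesets in that fit. The member below was the brighter dim RpL3 probeset, with 5.99, 5.53 and 5.56 in WtPE hearts, against 6.30, 6.63, 6.80, 6.87 and 6.90 in WtCS hearts (-1.01 ± 0.42, adjusted p = 0.248).

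The machinery that works with the ribosome was read in 4 lists. Of all probesets, 6.47% rose and 4.66% fell in sei hearts, and the lists are too short for their counts to be set apart from those shares. Of 25 initiation factors 22 were measured, and 0 passed in sei hearts, with a median change of 0.23. Of 9 elongation and termination factors 6 were measured and 0 passed, with a median of 0.00, and of 18 regulators of ribosome production 13 were measured and 0 passed, with a median of 0.06. Of 27 genes of ribosome assembly 25 were measured, of which 1 rose and 0 fell. That gene, Non1, a nucleolar GTPase, read 10.88, 11.19, 10.80, 9.60 and 9.61 in sei hearts, against 8.82, 8.83, 9.72, 9.22 and 8.60 in WtCS hearts (1.38, adjusted p = 0.00831), with its higher sei values in run C. The initiation factor eIF6, which keeps the subunits apart until assembly is complete, read 8.60, 8.76, 8.82, 7.06 and 7.36 in sei hearts, against 6.46, 6.15, 8.84, 6.68 and 6.40 in WtCS hearts (1.22, adjusted p = 0.109). Its high values were again those of run C, WtCS replicate 3 included. In KCNQ hearts 0 genes of these 4 lists passed, against 0.17% of all probesets.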

How the data were processed

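RNA of pooled fly hearts was hybridised to Affymetrix Drosophila Genome 2.0 arrays. Quality control by the authors used affyQCReport, and their RMA values came from AltAnalyze (version not given in the sources used here). RMA makes the arrays alike in distribution, so a change is relative to the other transcripts, and differences between very bright probesets can be understated. The deposited values are linear intensities, and log2 was taken from them here. The design had assumed log2 values in the file. Arrays have no read depth, and their number limits the precision.

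Of 18952 probesets, 183 controls were left out. Symbols came from the platform annotation (13647 probesets with 1 symbol, 402 with several, 4720 with none), and 3 probesets that list an RpL or RpS gene beside another gene were not members. Of the 47 members, 14 carry the suffix _s_at, whose probes can match more than 1 transcript, so these cannot be told from close copies. The 47 were matched to the RefSeq gene table of the fly, used for names, the count of RpL and RpS genes, and chromosome arms, which are not described here. Sequences were not used here.

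The model, in limma 3.58.1 under R 4.3.3, had 1 mean per group (12 residual and 3.68 prior degrees of freedom), and p-values were adjusted over the 18769 probesets by the Benjamini-Hochberg method. Nothing in the labels says that replicates are separate cohorts beyond calling them biological, and array names give the same sample code to WtCS replicates 2 and 3, to sei replicates 2 and 5, and again to 3 and 4, so the spread may be partly technical. The members and gene lists were chosen with earlier results of these data known. Named, most of them with values, were the called members, those with the 3 largest changes in each direction and contrast, and the 5 brightest and 8 dimmest probesets. Duplicated genes, the stalk and the ubiquitin fusions were named too, with others added for the run pattern after their values were seen. The value given is not always that of the contrast for which a member was chosen. Alternatives were another prior, separate fits, Student's t-test, the study's thresholds (unadjusted p under 0.05 with a fold over 2), repeated quantile normalization, scaling to the 75th percentile, leaving out probesets of mean log2 under 5, array run as covariate, runs alone, sample codes averaged, a replicate block, 1 probeset per gene, and each array left out. The scripts were tested on simulated data.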

Additional observations from a re-analysis of the deposited data

Results flagged for a closer look

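In groups of 5, an array was singled out where its gap to the nearest of the others was large for the range of the group. Of 94 groups examined, 15 gave such a value, and chance gives about 1 in 20. WtCS replicate 3, from run C, supplied 13 of the 15. It was the lowest WtCS array for RpL28 (12.35), RpL29 (12.04), RpL37-1 (12.63), RpL40 (12.80), RpL41 (13.03), RpS18 (12.88), RpS26 (12.67), RpS27A (12.46), RpS28b (12.69) and the bright probesets of RpS29 (12.51 and 12.44). It was the highest WtCS array for RpL39 (12.87) and for the bright RpL3 probeset (12.25). The other 2 values were those of sei replicate 5, lowest for the brighter dim RpL3 probeset (4.18) and highest for RpL34a (11.12). The members share arrays, so these values are not independent of each other.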

How the results depend on the processing

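Among the medians over members, 74 values under the alternatives differed from those of all arrays by less than the spread between replicates. For sei against WtCS hearts that spread, 0.15, was larger than the median change of -0.10, so it could not show whether the change held. The median was -0.02 in run A alone and -0.03 with array run as a covariate. For KCNQ against WtPE hearts the spread, 0.04, was also larger than the median of 0.01, which was -0.01 without KCNQ replicate 2. In sei hearts, the 2 members called higher were 1 in a separate fit (6.68% of all probesets called), with array run as a covariate (10.3%) and by the study's thresholds (which 10.7% of all probesets pass), and 0 by Student's t-test (3 higher at an unadjusted p under 0.05; 3.18%), in run A alone (4.56%), in run C alone (5.24%) and without run C (6.39%). They were 0 once probesets of a mean under 5 were left out (21.8%), which removes both by construction. The 1 member called lower was 0 by Student's t-test (7 lower at an unadjusted p under 0.05), and 2 with an intensity trend and robust prior (11.4%), by the study's thresholds, at means of 5 or more, in run C alone and with sample codes averaged (14.2%). Leaving out 1 array gave 1 to 3 higher and 1 to 2 lower. For the difference of the effects, the study's thresholds (7.73%) gave 2 higher and 1 lower and averaged codes (2.64%) 1 lower, and leaving out 1 array gave 0 to 1 lower. For WtPE against WtCS, 3 were higher with array run as a covariate (19.2%) and 1 in run A alone (12.7%), and 1 was lower by the study's thresholds (6.62%) and with codes averaged (6.34%). RpLP0-like turned to -0.17 with the covariate, -0.16 in run A and -0.19 in run C in sei hearts, and its difference of effects to -0.25 and -0.23. RpS28-like, lower in WtPE hearts by a log2 change of -0.42, turned to 0.13 with the covariate. The cause of these changes was not tested, beyond the arrays that each alternative uses. With the replicate number as a block, 2 were higher and 1 lower in sei hearts and 0 in KCNQ hearts. Same-numbered arrays correlated in their deviations by 0.034 to 0.527 (sei) and -0.039 to 0.082 (KCNQ), so the numbers were not taken as pairs. By Student's t-test, 3 members were higher in KCNQ hearts and 5 higher and 1 lower in WtPE against WtCS hearts at an unadjusted p under 0.05, and 0 after adjustment. Run B holds WtCS arrays alone and gave no comparison.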
